A study of Mus musculus with 11 samples.

Results

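Genes of the motile cilium were examined in RNA from dissected lateral habenula. They were the rows of the count table whose symbol begins with Cfap, Dnah, Dnai, Dnaic, Rsph, Tekt or Drc followed by a digit, together with Foxj1, Hydin, Spag17, Ccdc153 and Tmem212, at a total of at least 110 counts over the 11 libraries. Of 70 genes that matched by name among 54532 rows, 67 reached that minimum. Rsph6a (87 counts), Cfap97d1 (26 counts) and Dnah2os (13 counts) fell below it, and Tekt3 (254 counts) was the nearest gene above it.

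The study concerns the lateral habenula, an epithalamic nucleus beside the third ventricle, in arthritic mice with depression-like behaviour. Female CAIA mice (3 libraries) were BALB/c mice of 3 months given, by intraperitoneal injection, 50 mg/kg of a cocktail of 5 antibody clones against type II collagen and, 3 days later, 1 mg/kg lipopolysaccharide (LPS), which together make collagen antibody-induced arthritis. Male CAIA mice (3 libraries) had the same strain, age and injections. Female controls (3 libraries) and male controls (2 libraries, numbered 1 and 3), also BALB/c mice of 3 months, received vehicle, so antibody, LPS and arthritis cannot be told apart. The labels do not say that each library came from a separate animal, and p-values therefore measure the spread between these samples.

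Motile cilia are the beating hairs that move cerebrospinal fluid over the ependyma, the epithelium lining the brain ventricles. Their core is a ring of doublet microtubules around a central pair, bent by outer and inner dynein arms and steadied by radial spokes and the nexin-dynein regulatory complex. The choroid plexus is a neighbouring epithelium that hangs in the ventricle and secretes the fluid, and Ttr, which encodes the carrier protein transthyretin, is its most abundant transcript. Ependymal motile cilia genes are switched on by the transcription factor Foxj1 together with RFX factors, which bind a motif called the X-box.

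Of the 67 genes, 55 had promoter windows in RefSeq on GRCm38.p6, covering 250 bases before to 50 bases after a start site. The letters GTTGCC, the core of an X-box arm, were found on either strand in at least 1 window of 22 of these 55 genes (40.0%), against 14.14% of 27025 genes with such windows. The letters TGTTTAC, a forkhead core, were found on either strand in 4 of 55 (7.273%), against 4.052% of the 27025. A pair of inverted arms (GTTNCC, 0 to 3 bases, GGNAAC), which can overlap a GTTGCC match, was found in 1 of 55 (1.818%), Cfap298, against 0.9362%. A match is a run of letters, not a measured binding site. The stretches below are shown because they come from genes described in the results and carry X-box letters. They are printed 5′ to 3′ on the gene's strand, with the matched letters in capitals.
Ccdc153 (chr9:44240498-44240557, plus strand): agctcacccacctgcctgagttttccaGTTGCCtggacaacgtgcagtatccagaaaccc
Hydin (chr8:110266937-110266996, plus strand): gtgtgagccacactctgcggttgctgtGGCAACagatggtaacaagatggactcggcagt
Drc1 (chr5:30281355-30281414, plus strand): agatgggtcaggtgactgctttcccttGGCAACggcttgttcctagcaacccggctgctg
Dnaic2 (chr11:114727366-114727425, plus strand): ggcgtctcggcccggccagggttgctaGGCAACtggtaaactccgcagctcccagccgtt
Cfap298 (chr16:90935001-90935060, minus strand): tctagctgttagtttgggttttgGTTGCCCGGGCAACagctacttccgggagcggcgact
In Cfap298 the inverted arms are separated by the letters CG, whereas the other 4 stretches hold a single GTTGCC or its reverse complement GGCAAC. The windows of Drc7, Tmem212, Spag17 and Cfap36 held no GTTGCC.

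The libraries held 25317306 to 29565006 counts, and 19619 genes had enough counts to be tested, including all 67 motile cilia genes. Levels are given as CPM, counts scaled to library size with TMM factors. All 12 lateral habenula markers examined were detected, and their summed level was 1409 to 1617 CPM in CAIA libraries and 1345 to 1553 CPM in control libraries. Markers of other regions were detected too. Over all libraries, medial habenula markers summed to 1694 to 2340 CPM and thalamus markers to 3760 to 5611 CPM. Hippocampus and cortex markers summed to 579 to 771 CPM. Calb2 (460 to 663 CPM) is on both the medial habenula and the thalamus list. Calb1 is on both the lateral habenula list and the hippocampus and cortex list, so these sums are not independent. Markers of the neighbouring pineal gland were uneven and summed to 78.1 CPM in female CAIA 2 and 81.6 CPM in male CAIA 3, against 17.97 to 37.5 CPM in the other libraries. In bulk tissue, fewer cells of a type and less RNA per cell cannot be told apart.

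Summed over the 67 genes, the motile cilia level stayed within a 1.53-fold range over the 11 libraries, while Ttr ranged 121.6-fold. The summed level was 965, 1101 and 855 CPM in female CAIA libraries 1 to 3, against 947, 995 and 1239 CPM in female controls 1 to 3. In males it was 809, 946 and 943 CPM in CAIA libraries 1 to 3, against 883 and 943 CPM in controls 1 and 3. The CAIA mean was 936 ± 101 CPM (SD, n = 6) and the control mean 1002 ± 138 CPM (SD, n = 5), and the groups overlapped.

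Ttr was at 29.2, 27.0 and 29.8 CPM in female CAIA libraries, against 1469, 1996 and 3289 CPM in female controls. It was at 65.6, 1188 and 305 CPM in male CAIA libraries, against 2704 and 2577 CPM in male controls. All 6 CAIA libraries lay below all 5 controls for Ttr. Its log2 fold change in CAIA against control was -4.32 ± 0.71 (SE; edgeR, adjusted p = 0.0620), which missed the threshold of 0.05. Among male CAIA libraries alone it varied widely. Female CAIA 2 had the lowest Ttr level and the second highest summed cilia level, and female control 3 was highest in both. Female CAIA 2 was also high in pineal markers (78.1 CPM) and in subcommissural organ markers (176 CPM, given further on). So was male CAIA 3 (81.6 and 169 CPM), whose summed cilia level was 943 CPM. The part of such tissue in the cilia levels was not tested.

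**Figure D1:**
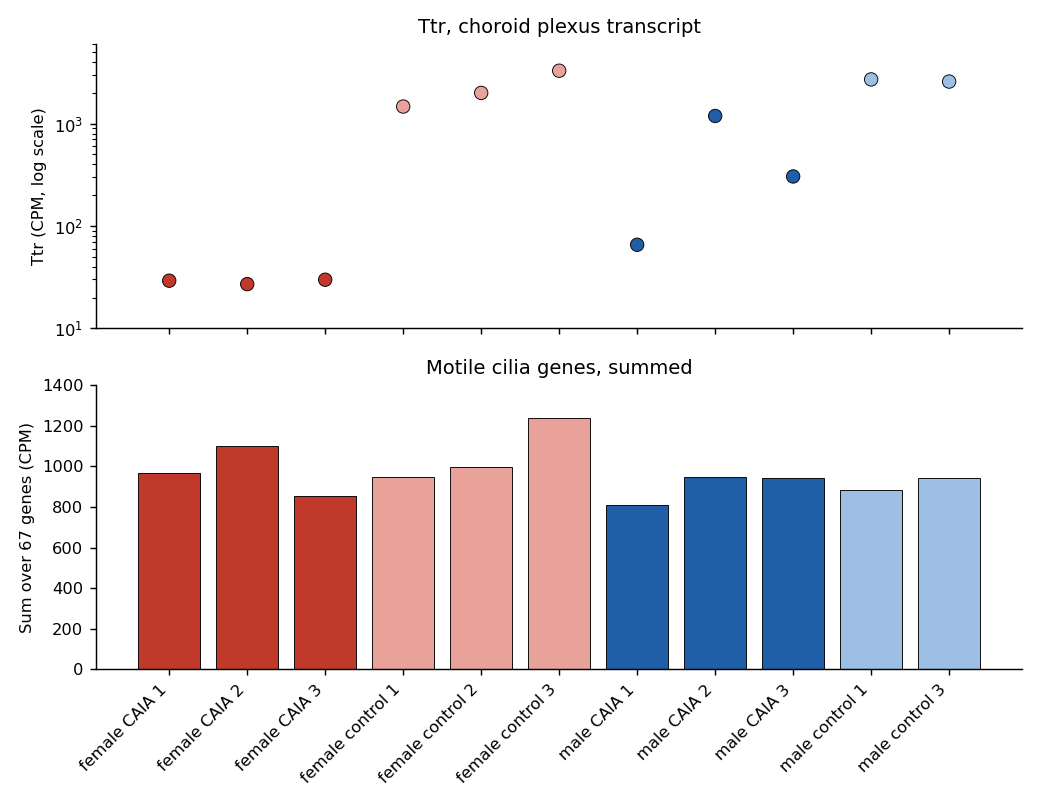
Ttr level (CPM, log axis, upper panel) and the summed level of the 67 motile cilia genes (CPM, bars from 0, lower panel) in each of the 11 libraries, colored by group. Ttr runs from 27.0 to 3289 CPM, whereas the sums lie between 809 and 1239 CPM and overlap between CAIA and control.

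Foxj1, the forkhead factor that starts the motile cilia programme, was at 48.0, 53.1 and 39.2 CPM in female CAIA libraries, against 39.95, 46.9 and 54.6 CPM in female controls. It was at 28.4, 36.1 and 39.35 CPM in male CAIA libraries, against 43.3 and 39.44 CPM in male controls. The female groups overlapped, and the male groups were separated only by the small gap between 39.35 and 39.44 CPM. Its log2 fold change over both sexes was -0.14 ± 0.11 (SE; edgeR, adjusted p = 0.924), which did not pass.

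Ccdc153, a coiled-coil gene widely used to mark ependymal cells, was at 18.5, 22.3 and 16.2 CPM in female CAIA libraries and 16.9, 14.3 and 22.7 CPM in female controls. In males it was at 13.8, 15.7 and 18.6 CPM in CAIA libraries and 20.2 and 14.3 CPM in controls. CAIA and control libraries were interleaved in both sexes. The membrane protein gene Tmem212, another ependymal marker, had a range of 7.30 to 13.05 CPM in CAIA libraries and 8.87 to 12.67 CPM in controls. The log2 fold changes over both sexes were -0.01 ± 0.14 for Ccdc153 and -0.09 ± 0.12 for Tmem212. Per kilobase of exon, Foxj1 (16.2 CPM per kb) and Tmem212 (14.1 CPM per kb) were among the most abundant of the 67 genes, behind Cfap36 (18.5 CPM per kb).

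The central pair is the pair of single microtubules in the core of the cilium, and Hydin and Spag17 encode large proteins of its projections. Hydin was at 25.4, 30.2 and 18.2 CPM in female CAIA libraries, against 20.5, 20.8 and 31.5 CPM in female controls. In males it was at 17.4, 19.7 and 21.4 CPM in CAIA libraries, against 13.7 and 19.1 CPM in controls. The groups overlapped in both sexes. Of the 7 central pair genes (Hydin, Spag17, Cfap46, Cfap54, Cfap69, Cfap74 and Cfap221), 3 had a negative and 4 a positive fitted log2 fold change, between -0.14 and 0.26, and none passed. Their summed level varied 1.49-fold, lowest in male control 1 (134 CPM) and highest in female control 3 (199 CPM).

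Outer dynein arms drive the beat, and Dnah5, Dnah9 and Dnah11 encode their heavy chains. Their summed level was 42.6 to 63.4 CPM in CAIA libraries and 36.1 to 71.6 CPM in control libraries. The outer arm intermediate chain genes Dnaic1 and Dnaic2 summed to 13.5 to 20.5 CPM in CAIA libraries and 15.3 to 26.7 CPM in controls. Both sets were highest in female control 3, and neither held a gene that passed.

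The 9 genes for inner arm heavy chains, which shape the waveform, were Dnah1, Dnah2, Dnah3, Dnah6, Dnah7a, Dnah7b, Dnah7c, Dnah10 and Dnah12. They summed to 168 to 228 CPM in CAIA libraries and 154 to 260 CPM in controls, with log2 fold changes between -0.12 and 0.21. Dnah7a, Dnah7b and Dnah7c are near-identical copies, as are Rsph3a and Rsph3b, so the split of reads within each set is uncertain. Dnah8, Dnah14 and Dnah17, whose products are best known from sperm or are little described, were scarce, between 0.06 and 0.13 CPM per kb.

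Radial spokes pass signals between the central pair and the dynein arms. The 7 Rsph genes summed to 55.45 to 75.0 CPM in CAIA libraries and 67.4 to 86.1 CPM in controls, and 6 of the 7 had a negative log2 fold change, none of which passed. Rsph9, a spoke head gene, was at 8.29, 9.59 and 7.52 CPM in female CAIA libraries, against 10.2, 8.68 and 12.8 CPM in female controls. It was at 8.52, 9.58 and 8.73 CPM in male CAIA libraries, against 10.35 and 10.2 CPM in male controls. Its log2 fold change over both sexes was -0.26 ± 0.11 (SE; edgeR, adjusted p = 0.728), and female control 2 overlapped the CAIA libraries.

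Tektins are filaments along the doublet microtubules. Tekt4 had 6.22, 8.62 and 5.60 CPM in female CAIA libraries, against 4.59, 4.40 and 5.62 CPM in female controls. In males it had 4.18, 6.75 and 5.89 CPM in CAIA libraries, against 4.37 and 4.49 CPM in controls. Its fitted log2 fold change of 0.41 ± 0.15 was the second highest of the 67 genes, after Dnah14 at 0.46 ± 0.26. Neither passed (edgeR, adjusted p = 0.581 for Tekt4 and 0.866 for Dnah14), and the Tekt4 groups overlapped, male CAIA 1 being the lowest library of all. Tekt2 shares 20.84% of its exonic bases with an opposite-strand gene, and since the strand setting of the counting is not given, their reads cannot be told apart.

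The remaining Cfap genes, named for their association with cilia and flagella, numbered 25, of which 20 had a negative and 5 a positive log2 fold change, between -0.26 and 0.18. Cfap36, which encodes a protein related to an ARL2-binding protein, varied least of the 67 genes, 1.32-fold from 45.2 CPM in male CAIA 1 to 59.6 CPM in male CAIA 2. Cfap20 encodes a protein of the junction between the doublet tubules and varied 1.33-fold, from 34.5 CPM in female control 2 to 45.9 CPM in male control 1. Cfap97 was at 29.9 to 33.96 CPM in CAIA libraries (median 30.8) and 25.4 to 31.5 CPM in controls (median 27.3). Its log2 fold change was 0.18 ± 0.07 (SE; edgeR, adjusted p = 0.581). Cfap298 shares 53.56% of its exonic bases with opposite-strand genes, so its level carries the same uncertainty as that of Tekt2.

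Over both sexes, 0 of 67 motile cilia genes passed in CAIA against control (edgeR, adjusted p below 0.05), where 0.596% of all genes tested did. DESeq2 called 1 of the 67 (Drc7), where it called 1.13% of all genes, and limma-voom called 0. An unadjusted p below 0.05 was found for 4 of the 67 (5.97%), namely Drc7, Tekt4, Cfap97 and Rsph9, against 6.36% of all genes. The median log2 fold change was -0.07, with 47 negative and 20 positive, against a median of 0.00 over all genes. Without female control 3 this median was -1.93e-05. The 95% intervals of 65 of the 67 genes lay between -1 and 1, those of Drc7 and Dnah14 reaching past these bounds. For 0 of the 67 did all 6 CAIA libraries lie below all 5 controls, a pattern shown by 1.01% of all genes. For 0 of the 67 did all 6 CAIA libraries lie above all 5 controls, as they did for 0.168% of all genes.

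**Figure D2:**
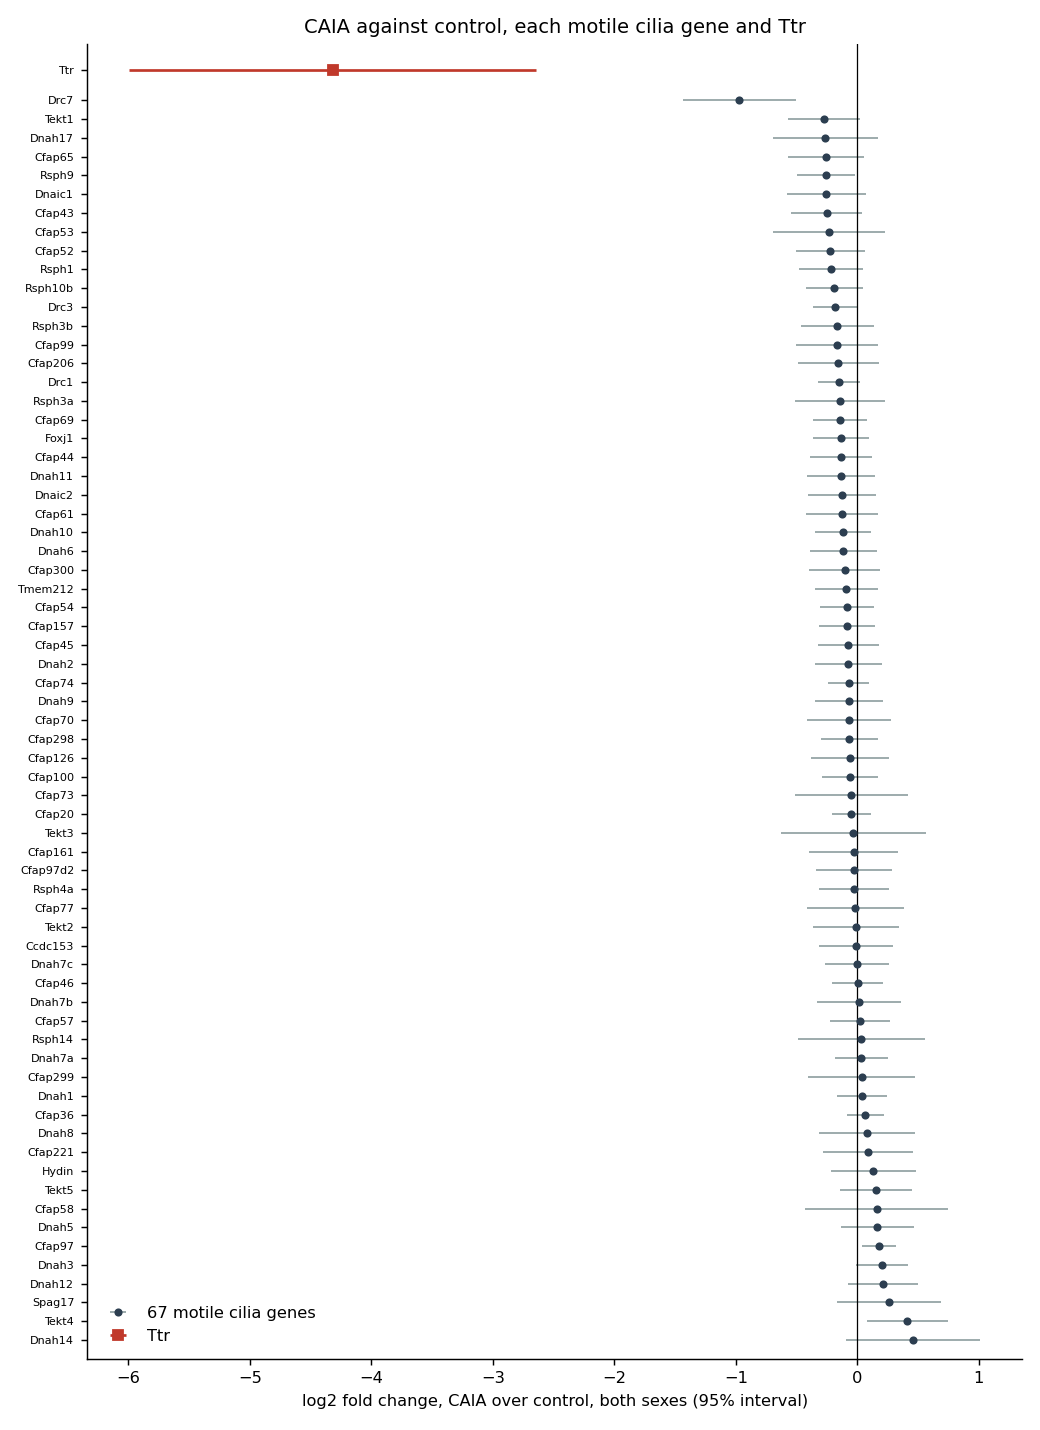
Log2 fold change of CAIA over control, averaged over the sexes, with 95% intervals for the 67 motile cilia genes (circles, ordered by value) and Ttr (square). Ttr lies at -4.32, Drc7 at -0.97, and the other 66 genes between -0.28 and 0.46.

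The interval of every one of the 67 genes lay above that of Ttr, which ran from -5.99 to -2.65. In females, 0 of the 67 passed, against 0.26% of all genes, with 5 unadjusted p below 0.05 (7.46%, against 5.22% of all genes), a median of -0.10, and 67 intervals above that of Ttr. In females DESeq2 called 1 of the 67, again Drc7, where it called 0.872% of all genes, and limma-voom called 0. In males, 0 of the 67 passed, against 0% of all genes, with 4 unadjusted p below 0.05 (5.97%, against 5.63% of all genes) and a median of -0.03, which was 0.027 without male CAIA 1. DESeq2 and limma-voom called 0 of the 67 in males. Only 5 of the 67 intervals in males lay above that of Ttr, which was wide there (-4.60 to -0.10). The difference between the female and male fold changes passed for 0 of the 67, against 0% of all genes, with 2 unadjusted p below 0.05 (Dnah8 and Dnah3; 2.99%, against 4.11% of all genes). DESeq2 and limma-voom called 0 of the 67 for that difference.

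Drc7 had the largest fitted change of the 67 genes. It encodes a subunit of the nexin-dynein regulatory complex, which links neighbouring doublets, and lies on chromosome 8 (chr8:95055103-95078141, plus strand, GRCm38). It was at 10.4, 10.8 and 9.51 CPM in female CAIA libraries, against 17.3, 24.3 and 27.9 CPM in female controls. It was at 7.02, 17.9 and 11.2 CPM in male CAIA libraries, against 19.9 and 20.9 CPM in male controls. Within each sex every CAIA library was below every control, but male CAIA 2 was above female control 1. CAIA and control ranges overlapped for 64 of the 67 genes in females and for 54 in males, so separation within a sex was not particular to Drc7. The share of all genes separated within a sex was not counted, so how unusual the separation of Drc7 is cannot be said. The highest level of Drc7 was 3.97 times its lowest, whereas the largest such ratio among the other 66 genes was 2.85.

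The log2 fold change of Drc7 over both sexes was -0.97 ± 0.21 (SE; 95% interval -1.44 to -0.51; edgeR, adjusted p = 0.0986), which missed the threshold. The call depended on the fit. DESeq2 gave -0.97 with an adjusted p of 4.53e-05. Without male CAIA 1 edgeR gave -0.84 with an adjusted p of 0.0245, and without male CAIA 2 it gave -1.18 with an adjusted p of 0.00131. Drc7 missed the threshold with limma-voom (-1.01, adjusted p = 0.0524). In edgeR it also missed without male CAIA 3 or any single female library (adjusted p 0.0508 to 0.286). Without both libraries highest in pineal markers edgeR gave -0.97 with an adjusted p of 0.445. Relative to the summed level of the other 66 genes, Drc7 was 0.876% to 1.93% in CAIA libraries and 1.86% to 2.51% in controls.

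The other subunits of the same complex that carry a Drc symbol had smaller fitted changes. Drc1, a scaffold subunit, was at 12.8 to 15.6 CPM in CAIA libraries and 13.9 to 17.8 CPM in controls. Drc3, another subunit, was at 14.9 to 20.5 CPM in CAIA libraries and 17.05 to 23.1 CPM in controls. Their log2 fold changes were -0.15 ± 0.08 for Drc1 and -0.18 ± 0.09 for Drc3. Neither passed, and the difference from Drc7 was not tested.

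**Figure D3:**
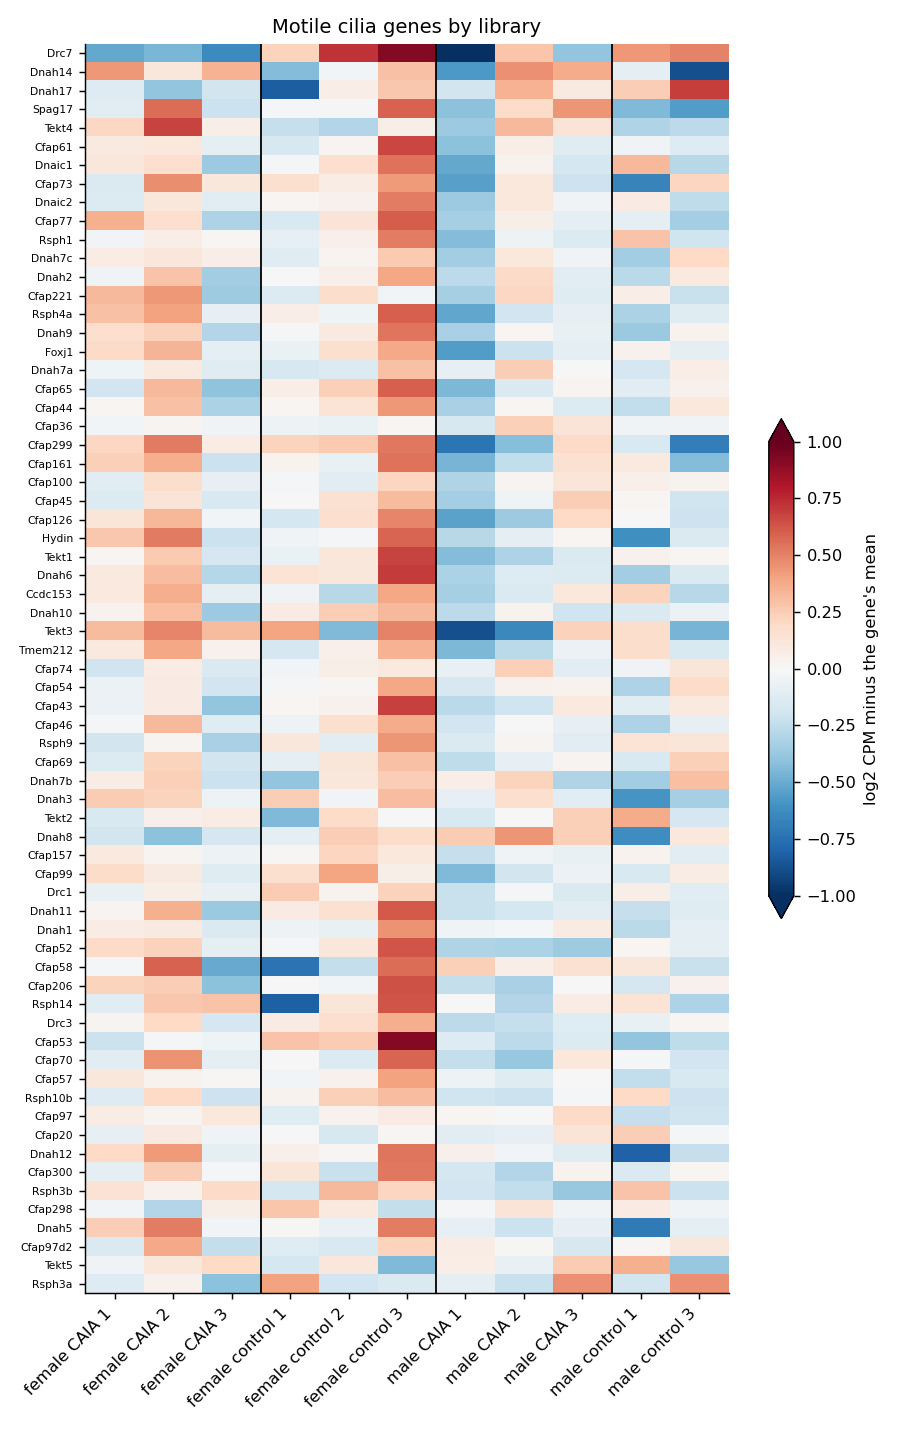
Level of each of the 67 motile cilia genes (rows, ordered by slope on Ttr from high to low) in each of the 11 libraries (columns), as log2 CPM minus the mean of that gene. Female control 3 is the highest library for 45 genes, male CAIA 1 the lowest for 25, and Drc7 in the top row has the widest range.

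Many of the genes were high in the same library. Female control 3 was the highest library for 45 of the 67 genes, and was also highest for the summed choroid plexus markers (5711 CPM) and the summed ependymal markers outside the cilium (2658 CPM). The ependymal sum there was made up largely of Zic1 (832 CPM), Nnat (360 CPM), Aqp4 (360 CPM) and Gja1 (290 CPM). Summed markers of other tissue stood apart there too: the same library was highest for medial habenula (2340 CPM) and meningeal fibroblast markers (175 CPM), and lowest for thalamus (3760 CPM) and lateral habenula markers (1345 CPM). Their part in the motile cilia levels was not tested. Male CAIA 1 was the lowest library for 25 genes and male control 1 for 16. The ratio of the highest to the lowest library had a median of 1.83 over the 67 genes and was below 2 for 42 and below 3 for 66. Within groups, the SD of log2 CPM had a median of 0.246 over the 67 genes, against 0.190 over all genes and 1.16 for Ttr.

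Whether the genes follow Ttr was asked with a slope, the log2 change of a gene per log2 unit of Ttr, fitted with the 4 group means in the model. A slope of 1 means the same fold as Ttr. Of the 67 genes, 1 passed (edgeR, adjusted p below 0.05), where 0.117% of all genes did, and it was Drc7 at 0.34 ± 0.05 (SE; adjusted p = 0.00964). The slope was positive for 65 of the 67, with a median of 0.07, against a median of 0.00 over all genes. The median was 0.046 without female control 3, 0.156 without male CAIA 2 and -0.006 with treatment alone in place of the 4 groups. Other marker lists also lay to a single side of 0 in this fit: the slope was positive for 11 of 12 medial habenula markers (median 0.05), 12 of 14 meningeal fibroblast markers (median 0.15) and 13 of 15 pineal markers (median 0.17), and for 0 of 12 thalamus markers (median -0.07). At the median slope with all libraries, 10 times more Ttr goes with 1.18 times the cilia level, and at the slope of Drc7 with 2.19 times. The upper 95% bound was below 0.5 for 66 of the 67, and the exception, Dnah14, reached 0.55. In the same fit, 9 of the 16 choroid plexus markers other than Ttr passed, with a median slope of 0.57 and a range of 0.15 to 0.98.

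**Figure D4:**
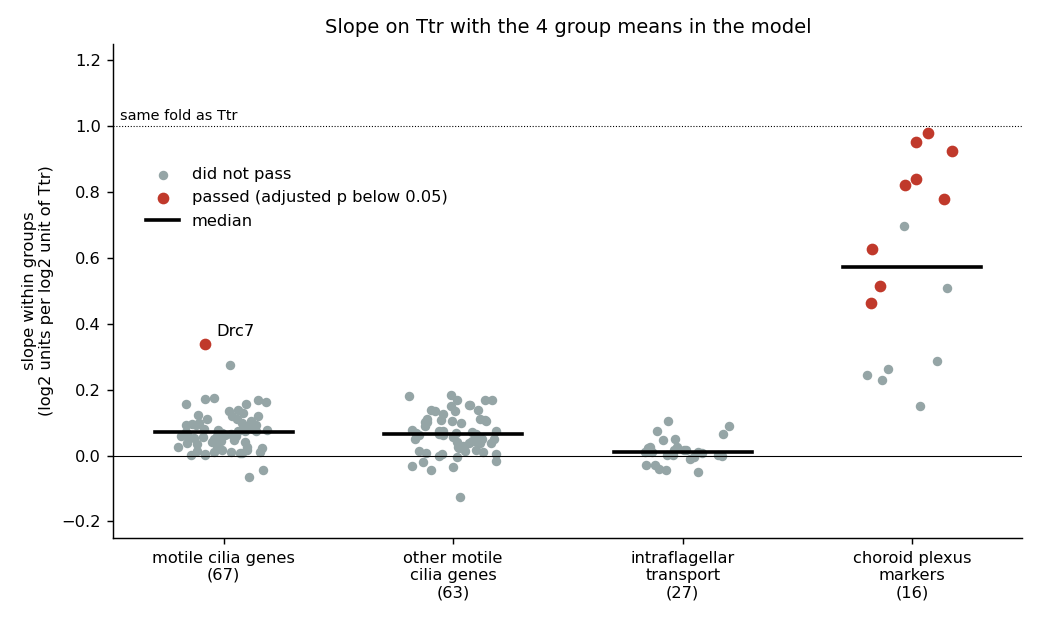
Slope of each gene on Ttr within groups (log2 units per log2 unit of Ttr) for the 67 motile cilia genes, 63 other motile cilia genes, 27 intraflagellar transport genes and 16 choroid plexus markers without Ttr, with red points for genes that passed and bars for medians. The medians are 0.07, 0.07, 0.01 and 0.57, and Drc7 is the red point among the 67.

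Within groups, Ttr varied mainly in male CAIA libraries, and the call on Drc7 rested on them. The slope of Drc7 was 0.39 (edgeR, adjusted p = 0.566) without male CAIA 1 and 0.36 (adjusted p = 0.824) without male CAIA 2. Over all genes, 23 passed on the slope with every library, 5 without male CAIA 1 and 0 without male CAIA 2, so the calls on choroid plexus markers and on Msx1 (given further on) were also lost without male CAIA 2. Replacing Ttr by the mean of the choroid plexus markers without Ttr gave a slope of 0.61 (adjusted p = 0.00247). Whether the Drc7 reads come from choroid plexus or ependyma was not tested.

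**Figure D5:**
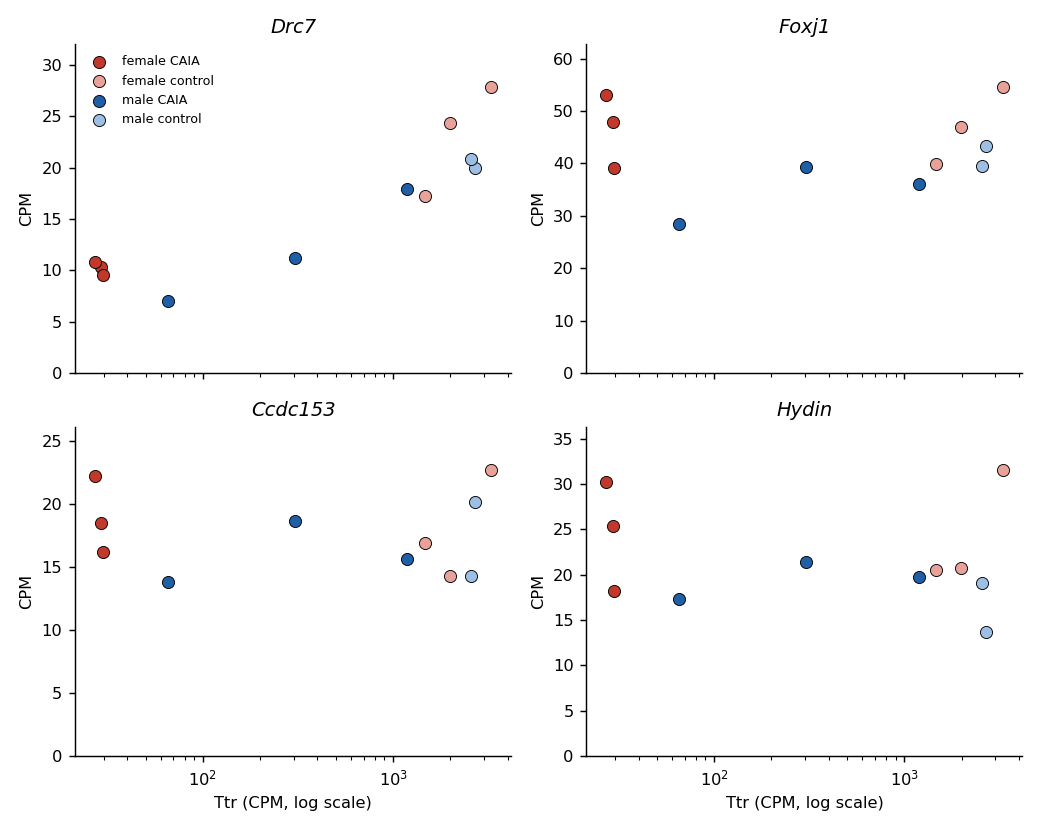
Levels of Drc7, Foxj1, Ccdc153 and Hydin (CPM, from 0) against Ttr (CPM, log axis) in the 11 libraries, colored by group. Drc7 is lowest in male CAIA 1 (7.02 CPM) and highest in female control 3 (27.9 CPM), whereas CAIA and control libraries of Foxj1, Ccdc153 and Hydin cover overlapping ranges.

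Most fitted values were higher in female than in male libraries, though no gene passed. In female against male over both treatments, 0 of the 67 passed (edgeR; 0 by DESeq2 and 0 by limma-voom), against 0.0459% of all genes. The log2 difference was positive for 53 of the 67, with a median of 0.21, against 51.0% positive and a median of 0.00 over all genes. An unadjusted p below 0.05 was found for 15 (22.4%), against 6.76% of all genes. Without female control 3 the median was 0.14. Marker lists differed between the sexes as well: the difference was positive for 58 of 63 other motile cilia genes (median 0.18), 16 of 19 ependymal markers outside the cilium (median 0.12), 10 of 10 astrocyte markers (median 0.08) and 5 of 5 blood markers (median 0.42). It was negative for 13 of 17 choroid plexus markers (median -0.60), with Ttr at -2.20 ± 0.66 (SE; edgeR, adjusted p = 0.731). For Ttr this average over treatments came mainly from CAIA libraries, with means of 28.7 CPM in females and 519 CPM in males. The control means were 2251 CPM in females and 2640 CPM in males. The part of these marker lists in the difference of the 67 genes was not tested.

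For 2 of the 67 genes every female library was above every male library, where 0.285% of all genes were. They were Dnah5, at 17.2 to 25.7 CPM in females and 11.1 to 17.1 CPM in males, and Rsph4a, at 14.53 to 23.2 CPM in females and 10.7 to 14.52 CPM in males. Their log2 differences, female minus male, were 0.46 ± 0.14 for Dnah5 and 0.46 ± 0.13 for Rsph4a (SE; edgeR, adjusted p = 0.717 and 0.703). The lowest p of the 67 was that of Dnah3, at 0.39 ± 0.10 (adjusted p = 0.633).

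Genes of the same pathway under other names were taken from a list. Of 63 other motile cilia genes, 0 passed in CAIA against control by edgeR, where 0.596% of all genes did. An unadjusted p below 0.05 was found for 2 (3.17%, against 6.36% of all genes), and the median log2 fold change was -0.04 with 39 negative. Wdr63, an inner arm dynein component, was at 17.0, 18.3 and 15.8 CPM in female CAIA libraries, against 18.2, 20.3 and 28.3 CPM in female controls. In males it was at 10.7, 12.6 and 16.2 CPM in CAIA libraries, against 16.8 and 13.025 CPM in controls, and the male groups overlapped. Its log2 fold change was -0.28 ± 0.13 (SE; edgeR, adjusted p = 0.781). Of the 15 regulators of multiciliated cells, 27 intraflagellar transport genes (which carry cargo along the cilium) and 23 genes of the non-motile primary cilium, 0 passed in any edgeR comparison. Unadjusted p below 0.05 in CAIA against control numbered 3 (20%), 1 (3.7%) and 0 (0%) in these lists, against 6.36% of all genes.

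Gmnc, which starts the multiciliated cell programme, had the lowest log2 fold change among the regulators. It was at 0.89, 0.98 and 0.79 CPM in female CAIA libraries, against 1.91, 2.98 and 4.26 CPM in female controls. It was at 1.18, 2.75 and 0.75 CPM in male CAIA libraries, against 2.30 and 2.93 CPM in male controls. The groups overlapped through male CAIA 2, and the log2 fold change was -1.27 ± 0.30 (SE; edgeR, adjusted p = 0.0996). Trp73, another regulator of multiciliation, had -0.33 ± 0.13 (adjusted p = 0.606).

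Of 19 ependymal markers outside the cilium, 0 passed in CAIA against control by edgeR, where 0.596% of all genes did. An unadjusted p below 0.05 was found for 6 (31.6%, against 6.36% of all genes), and 9 of the 19 log2 fold changes were positive and 10 negative. On the Ttr slope 1 of the 19 passed, where 0.117% of all genes did. It was the homeobox gene Msx1, at 0.43 ± 0.07 (edgeR, adjusted p = 0.0408). Msx1 was at 7.11, 9.70 and 5.91 CPM in female CAIA libraries, against 15.7, 19.99 and 29.8 CPM in female controls. In males it was at 5.01, 16.1 and 9.67 CPM in CAIA libraries, against 18.4 and 20.2 CPM in controls. The summed ependymal markers were 2338 to 2575 CPM in CAIA libraries and 2209 to 2658 CPM in controls. The sum was made up largely of Zic1 (685 to 917 CPM), Nnat (295 to 377 CPM), Gja1 (248 to 331 CPM) and Aqp4 (179 to 360 CPM). Aqp4 is also on the astrocyte list, and the sum does not measure ependymal content alone.

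Of 17 choroid plexus markers with enough counts, 8 passed and fell in CAIA against control (edgeR), where 0.596% of all genes passed. The median log2 fold change of the 17 was -2.47, with none positive. Their summed level was 266 to 2161 CPM in CAIA libraries and 2757 to 5711 CPM in controls. Subcommissural organ markers, a list that includes Foxj1, summed to 176 CPM in female CAIA 2 and 169 CPM in male CAIA 3, against 36.1 to 67.2 CPM in the other libraries. These were the same 2 libraries that were high in pineal markers. Foxj1 alone made up 28.4 to 54.6 CPM of the sum. Sspo, on the same list, was at 118 CPM in female CAIA 2 and 122 CPM in male CAIA 3, against 5.72 to 8.72 CPM elsewhere. The part of these markers in the motile cilia levels was not tested.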

How the data were processed

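The deposited table holds raw read counts per gene. The submitters' processing notes name featureCounts (1.5.0-p3), HISAT2 (2.0.5), cutadapt (1.9.1) and the build GRCm38. No source used here gives the annotation release or the strand setting. Coordinates and exon lengths came from GENCODE M21 (54495 of 54532 identifiers matched), and promoters from RefSeq.

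Genes were filtered with filterByExpr, scaled with TMM and fitted as 4 group means in edgeR 4.0.16 (robust quasi-likelihood, 7 residual degrees of freedom, R 4.3.3), with Benjamini-Hochberg adjustment over all genes tested. The Ttr slope added log2 CPM of Ttr (prior count 2) to that model, leaving Ttr out of the adjustment. The code was tested on simulated counts. DESeq2 1.42.0, limma-voom (limma 3.58.1), other scalings and filters, and each library left out were the alternatives. Groups came from sample titles and characteristics. No 2 libraries of a group agreed within sampling noise (chi-square per degree of freedom 6.59 to 27.7 over 10 pairs).

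The motile cilia genes and the other lists were chosen with earlier results of these data known. Named genes were Foxj1, Hydin, Spag17, Ccdc153 and Tmem212, the 3 most abundant of each name family, those that passed or otherwise the 5 with the lowest p in each comparison, those nearest the count minimum, and up to 3 of each other list. Some of these are given only in counts and ranges, and Dnah14, Cfap298 and Tekt2, like the grouping of genes by role, were added after their values were seen. Intervals cover counting error and the spread between libraries, and reads without molecular identifiers are not independent molecules. Figures were drawn with matplotlib 3.10.9.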

Additional observations from a re-analysis of the deposited data

How the results depend on the processing

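The number of motile cilia genes that passed in CAIA against control was 0 over both sexes and 0 in females by edgeR, and 1 in each with DESeq2. Leaving out 1 library gave 0 to 1 in both comparisons, with 1 without male CAIA 1 or male CAIA 2, and the gene was Drc7 each time. The number that passed on the Ttr slope was 1, but 0 with treatment alone in place of the 4 groups (Drc7 slope 0.15, adjusted p = 0.491) and 0 to 1 with 1 library left out, 0 again without male CAIA 1 or 2. With the replicate number as a block, 1 gene passed over both sexes (Drc7, -1.06, adjusted p = 0.0216) and 0 on the slope (Drc7, 0.30, adjusted p = 0.382). After the group means were removed, same-numbered libraries of different groups correlated at -0.206 to 0.104 over 15 pairs of libraries. With 2 or 3 libraries per group, these values cannot decide whether the numbers pair the samples. With the Ttr level added to the model, the median log2 fold change was 0.26 over both sexes, 0.32 in females, 0.20 in males and 0.14 for the sex difference, and Drc7 was at 0.59 (adjusted p = 1). These values are extrapolated along the fitted Ttr slope, since every CAIA library lay below every control for Ttr. The female median ran from -0.205 to 0.0416 with 1 library left out, and was 0.042 without female control 3, where the sex difference had a median of 0.022, against -0.09 with every library. Where a male control is left out, the other stands alone and is assumed to vary like the other groups. Leaving out both libraries highest in pineal markers, and dropping TMM factors, were chosen after seeing the data and moved none of these counts. Over 31 named genes and 1300 comparisons of settings, 97 fitted values changed sign without a call in either fit and 0 called values reversed. Low counts limit Tekt3, Cfap58, Cfap53 and Dnah14, with totals of 254 to 314.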
